A study of Mus musculus with 10 samples.

Results

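Chemokines are small secreted proteins that direct the movement of cells, and they are grouped by the spacing of their first cysteines into CC ligands (genes named Ccl) and CXC ligands (Cxcl). They act on G protein-coupled receptors of matching names (Ccr and Cxcr), while atypical receptors such as Cxcr7, now called Ackr3, bind ligands and clear them. In bone the best known pair is Cxcl12 and its receptor Cxcr4, which keeps blood-forming cells in the marrow, and other members recruit monocytes, neutrophils and osteoclast precursors. The genes described here are all those in both expression tables whose symbol is Ccl, Cxcl, Ccr or Cxcr followed only by a number. They numbered 48 of 21812 single symbols found in both tables, with 19 CC ligands, 12 CXC ligands, 10 CC receptors and 7 CXC receptors.

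RNA sequencing was done on 10 mouse libraries of 4 groups. Rib chondrocytes came from ICR mice at postnatal day 1, sorted either as ECFP-positive cells of Col2a1-ECFP transgenic mice (Col2+, 3 libraries) or as mCherry-positive cells of Col10a1-mCherry transgenic mice (Col10+, 3 libraries, labelled as hypertrophic chondrocytes). Osteoblasts came from the calvaria of C57BL/6 embryos at E17.5 of the genotypes Runx2_cHet_KO and Runx2_cHom_KO, with 2 libraries each. Both names refer to Runx2, the transcription factor that osteoblast formation requires. The labels neither spell the names out nor give a Cre driver, and there is no unmodified control among the osteoblasts. They do not say whether libraries came from separate animals, so p-values measure only the spread between these libraries. The osteoblasts were released by enzyme from the front of the calvaria, and no sort is described for them.

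Levels are FPKM, fragments scaled to transcript length and to the mapped fragments of a library. The rib table holds 1 value for each sort, so rib differences have no replicate check, error or p-value. The osteoblast table holds a value for each library. The 2 tables were normalised separately, and levels from both are set side by side only as values. Summed FPKM ran from 536770 to 712295 over the 6 columns used. Runx2 itself was at 43.4 and 53.9 FPKM in Runx2_cHet_KO and at 32.9 and 32.6 FPKM in Runx2_cHom_KO, which missed the threshold (limma adjusted p = 0.0707). Cartilage genes such as Col2a1 and Acan were abundant in both rib sorts. The osteoblast markers Col1a1, Alpl and Runx2 were present in all 4 osteoblast libraries, while Bglap was listed at 0 in both Runx2_cHom_KO libraries. The library Runx2_cHet_KO 1 stood apart in macrophage and monocyte genes, whose 10 markers summed to 368 FPKM there against 54.0 in Runx2_cHet_KO 2 and 61.5 and 81.2 in the Runx2_cHom_KO libraries. Many chemokines are made by macrophages, and calls that change when this library or its partner is left out are given as such. In bulk RNA a smaller number of cells of a type and less RNA per cell cannot be told apart.

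Of the 48 genes, 23 reached 5 FPKM in at least 1 of the 6 columns. The other 25 stayed below it everywhere, and 20 of them stayed below 1 FPKM. The highest of these 25 was Ccl8, which draws monocytes, at 4.26 FPKM in Col10+ cells. Ccl1, Ccl26 and Cxcr1 were listed at 0 in all 6 columns. Zeros in such tables may be failed estimates, and no fold is given against them.

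Promoter sequence is shown for Cxcl12, the marker of the set, and for the neutrophil-attracting ligands Cxcl1, Cxcl2 and Cxcl3, because these 3 are neighbours in the genome and were all far higher in Col10+ cells. The 250 bases before the gene start are from RefSeq on build GRCm38.p6, written 5′ to 3′ on the strand of the gene, and capitals mark every match to 4 motifs described after the sequences.
Cxcl12, chr6:117168285-117168534, plus strand: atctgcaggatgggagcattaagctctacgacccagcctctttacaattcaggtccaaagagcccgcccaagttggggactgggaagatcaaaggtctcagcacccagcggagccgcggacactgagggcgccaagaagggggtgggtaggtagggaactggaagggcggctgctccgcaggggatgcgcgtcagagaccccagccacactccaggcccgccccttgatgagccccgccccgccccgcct
Cxcl1, chr5:90890995-90891244, plus strand: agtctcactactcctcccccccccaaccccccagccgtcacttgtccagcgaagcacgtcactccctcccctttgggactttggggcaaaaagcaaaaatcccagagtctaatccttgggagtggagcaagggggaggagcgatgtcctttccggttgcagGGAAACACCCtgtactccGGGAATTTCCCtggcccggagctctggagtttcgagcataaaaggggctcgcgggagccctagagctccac
Cxcl2, chr5:90903649-90903898, plus strand: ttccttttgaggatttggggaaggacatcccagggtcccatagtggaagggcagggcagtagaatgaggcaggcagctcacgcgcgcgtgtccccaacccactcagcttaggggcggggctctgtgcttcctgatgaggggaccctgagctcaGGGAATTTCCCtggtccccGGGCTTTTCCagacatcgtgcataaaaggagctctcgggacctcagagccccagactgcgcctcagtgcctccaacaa
Cxcl3, chr5:90785851-90786100, plus strand: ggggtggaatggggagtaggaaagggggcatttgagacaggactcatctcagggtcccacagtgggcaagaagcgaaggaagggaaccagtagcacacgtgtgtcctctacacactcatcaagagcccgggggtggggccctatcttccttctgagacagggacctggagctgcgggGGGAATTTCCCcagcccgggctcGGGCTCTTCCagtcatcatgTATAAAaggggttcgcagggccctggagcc

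The motifs searched on both strands were GGG and TTCC with any 3 bases between them (the type bound by NF-kappaB, the main inflammatory transcription factor), TGTGGT (the core bound by Runx factors), TGANTCA (bound by AP-1) and TATAAA (the TATA box). The Cxcl1, Cxcl2 and Cxcl3 windows each hold GGGAATTTCC, and its last base lies 62, 88 and 64 bases before the gene start. In each of them a match on the opposite strand overlaps it with a shift of 1 base. Further matches of this type are GGAAACACCC in Cxcl1, on the opposite strand, GGGCTTTTCC in Cxcl2 and GGGCTCTTCC in Cxcl3, and the Cxcl3 window also holds TATAAA. The Cxcl12 window holds none of the 4 motifs, which says only that these letters are not in these 250 bases. A window was at hand for 33 of the 48 genes. The NF-kappaB type was present in 9 of these 33 genes, against 4.65% of all 32851 windows of this length. A gene was counted if any of its windows matched, while the share over all is of single windows. Of the 9 genes, Ccl1, Ccl20, Ccr3 and Ccr6 stayed below 1 FPKM in all 6 columns. The Runx core was present in 8 of the 33, against 14.0% of all windows. These were Ccl3, Ccr1, Cxcr7, Ccl20, Cxcl9, Cxcr1, Cxcr3 and Cxcr6, and the last 5 stayed below 1 FPKM in all 6 columns. No window was at hand for Ccl11 and Ccl5, the members called between the Runx2 genotypes below. A match of letters is a description of the window and does not show binding.

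The first comparison asked how Col10+ rib cells differ from Col2+ rib cells. Of the 48 genes, 19 reached 5 FPKM in a sort. Of these 19, 13 were under 1 FPKM in Col2+ cells and at 5 FPKM or more in Col10+ cells. The share was 5.97% among all genes that reached 5 FPKM in a sort. Cxcl14 was the one member at 5 FPKM or more in Col2+ cells. Calls of higher and lower required a log2(FPKM + 1) difference of at least 1 in size, with a minimum of 5 FPKM in whichever sort was higher. By this rule 18 members were higher in Col10+ cells, 1 was lower, and 29 did not reach 5 FPKM in either sort. Over all 8354 genes at this level 13.8% were higher and 14.2% lower. All 18 reached 5 FPKM in Col10+ cells only, so they entered the count through the sort in which they are high. Without any level filter, 41 of the 48 had the larger FPKM in Col10+ cells, as did 8622 (39.5%) of all 21812 single symbols. The other members were Ccl25, Ccl28, Cxcl14 and Cxcl17, with the larger value in Col2+ cells, and the 3 that were listed at 0 in both. Of the single symbols, 8393 had the larger value in Col2+ cells and 4797 were listed at 0 in both or equal.

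Col2+ cells had little of the Cxcl12 axis. Cxcl12 was at 0.128 FPKM in Col2+ and 41.2 FPKM in Col10+ cells, a difference of 5.22 on the log2(FPKM + 1) scale. Its signalling receptor Cxcr4 was at 0.0705 and 65.6 FPKM, a difference of 5.96 on that scale and the largest of the 48 genes in these values. Cxcr7, the atypical receptor that takes up Cxcl12, measured 3.30 and 9.90 FPKM, which is 3.00-fold more in Col10+ cells. Ligand and both receptors were thus higher in the same sort, with the signalling receptor close to 0 in Col2+ cells and the atypical one measurable in both.

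The ligands of neutrophil receptors were also higher in Col10+ cells. Cxcl1 was at 3.68 FPKM in Col2+ and 53.7 FPKM in Col10+ cells (14.6-fold), Cxcl2 at 1.28 and 24.7 FPKM (19.3-fold) and Cxcl3 at 0.0891 and 5.90 FPKM. Cxcr2, the receptor for these ligands on neutrophils, was at 0.455 and 10.1 FPKM. Cxcl5, another ligand of Cxcr2, was listed at 0 in Col2+ cells and stayed under the 5 FPKM limit in Col10+ cells. Cxcl16, a membrane-bound ligand made by myeloid cells, was at 1.82 and 14.4 FPKM, 7.91-fold higher.

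Among the CC ligands, 7 of 19 reached the limit, and all 7 were higher in Col10+ cells. They reached it in Col10+ cells only, the sort in which they are high. Of all genes at this level, 13.8% were higher. Ccl2 and Ccl7, which draw monocytes through Ccr2, were at 0.0196 and 30.7 FPKM and at 0.0199 and 11.0 FPKM. Ccl3 and Ccl4, which draw macrophages and T cells, had zeros in Col2+ cells and reached 19.3 and 14.3 FPKM in Col10+ cells. A second row of the rib table with the name Ccl3 was at 0 and 1.62 FPKM and was not used. Ccl6 was listed at 0 and was at 17.9 FPKM, and Ccl9, a myeloid ligand of Ccr1, was at 0.0757 and 14.7 FPKM. Ccl5, which is known from T cells and activated myeloid cells, was the one CC ligand above 1 FPKM in Col2+ cells, at 2.07 against 6.66 FPKM (3.21-fold). Ccl6, Ccl3, Ccl4 and Ccl9 thus separated the sorts far more widely than Ccl5 did.

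Ccr1 and Ccr2, which were higher, are receptors of monocytes, macrophages and osteoclast precursors. Ccr1 was listed at 0 in Col2+ and was at 21.9 FPKM in Col10+ cells, and Ccr2 was at 0.00416 and 8.52 FPKM. The receptors best known from lymphocytes remained low in Col10+ cells. Ccr7 was at 1.98 FPKM, Ccr4, Ccr6, Ccr8 and Ccr9 between 0.00779 and 0.0944 FPKM, and Cxcr3, Cxcr5 and Cxcr6 between 0.108 and 0.202 FPKM.

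Cxcl14 went the other way. This ligand, expressed in many connective tissues, was at 86.5 FPKM in Col2+ and 29.8 FPKM in Col10+ cells, 2.90-fold lower, with a log2(FPKM + 1) difference of -1.51. It made up most of the summed FPKM of all CXC ligands in Col2+ cells (93.8), whereas in Col10+ cells Cxcl1 and Cxcl12 both had a larger FPKM than Cxcl14. The 4 members that reached 5 FPKM only in osteoblasts stayed low in both rib sorts. Ccl11 and Ccl12 were listed at 0 in Col2+ cells and measured 2.01 and 2.09 FPKM in Col10+ cells, Cxcl10 measured 0.138 and 3.19 FPKM, and Ccl25 measured 0.850 and 0.773 FPKM.

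**Figure D1:**
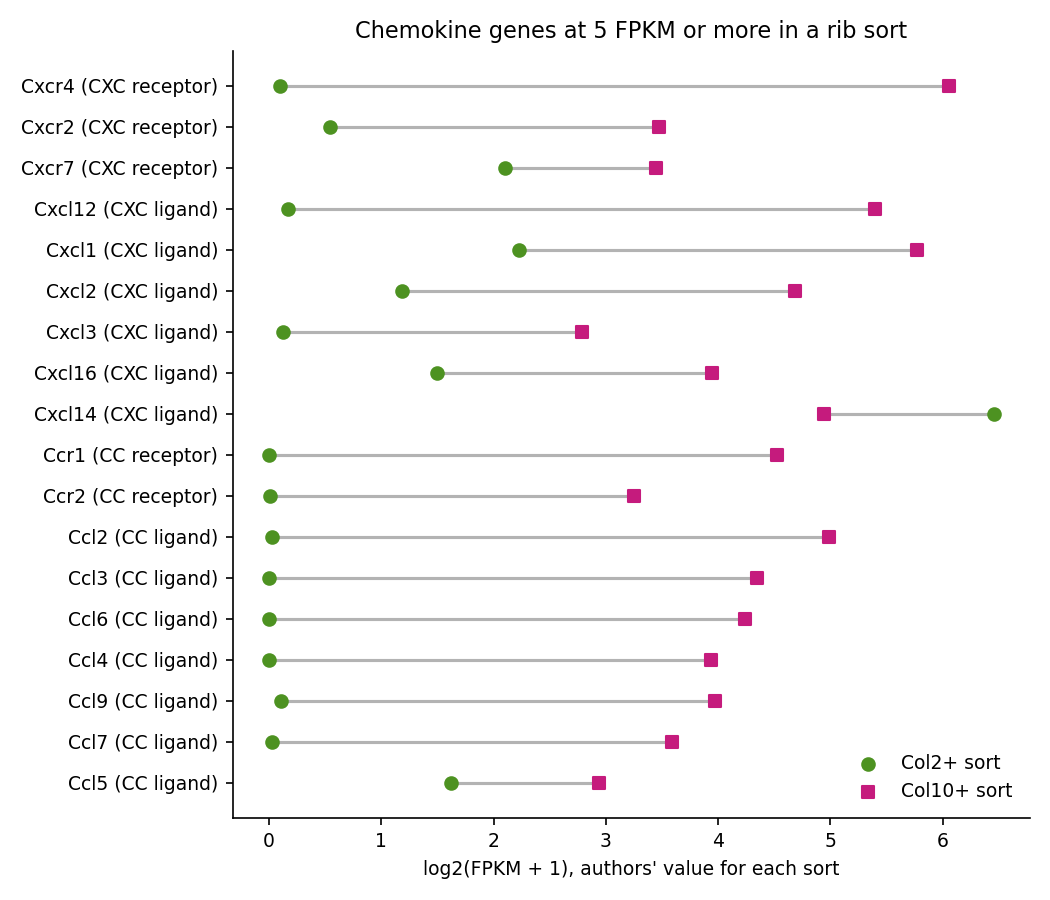
Levels of 18 chemokine genes at 5 FPKM or more in a rib sort, as log2(FPKM + 1) on the x axis, with circles for the authors' Col2+ value and squares for their Col10+ value. All lines run to the right towards Col10+ except that of Cxcl14, which falls from 86.5 to 29.8 FPKM.

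Markers of several other cell types were also higher in Col10+ cells, though not those of every type. The 7 fibroblast and perichondrium markers summed to 302 FPKM in Col2+ and 329 FPKM in Col10+ cells. These sums were close because Lum was lower in Col10+ cells, at 277 and 117 FPKM. Of the 5 that reached 5 FPKM in a sort, 3 were higher in Col10+ cells and 1 lower. The shares over all genes at this level were 13.8% and 14.2%. The 5 epithelial markers summed to 19.9 and 5.19 FPKM. Of these, Epcam and Krt18 were lower in Col10+ cells. Krt5, Krt14 and Cdh1 had the larger value in Col10+ cells, at 0.455 FPKM or less. The 6 osteoclast markers summed to 20.1 and 282 FPKM. The 10 macrophage and monocyte markers summed to 3.38 FPKM in Col2+ cells, with 7 listed at 0, and to 961 FPKM in Col10+ cells with 0 at 0. The 8 neutrophil markers summed to 0.262 and 3941 FPKM, with 4 at 0 in Col2+ cells, and the 6 endothelial markers to 0.197 and 77.8 FPKM, with 2 at 0. The 6 osteoblast markers summed to 18.1 and 3728 FPKM, the 8 lymphocyte markers to 0.768 and 18.3 FPKM, and the 5 mast cell markers were all listed at 0 in Col2+ cells and summed to 11.3 FPKM in Col10+ cells. The part of these cells in the chemokine values was not tested, since each sort has 1 value. Scaling also differs between the sorts. The median log2 difference of all 8354 genes was -0.31, and it was -0.022 when columns were centred on their median ratio. Centring moved the share of changed genes that were higher from 49.2% to 68.4%. The same 18 members were higher and Cxcl14 lower under both.

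The second comparison asked how Runx2_cHom_KO osteoblasts differ from Runx2_cHet_KO osteoblasts. Ccl11, which draws eosinophils and is made by fibroblasts, rose and Ccl5 fell, while the other 14 members that could be tested did not pass. Testing with limma took genes that reached 1 FPKM in 2 or more of the 4 libraries, and a change was called at an adjusted p under 0.05 with a log2(FPKM + 1) change of at least 1 in size. The filter kept 16 of the 48 members, namely 9 CC ligands, 6 CXC ligands and the receptor Cxcr7. Of all 11909 genes tested, 2.3% rose and 1.39% fell. The members' median log2 change was -0.099, beside -0.026 for all genes.

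Ccl11 measured 0.831 and 1.21 FPKM in Runx2_cHet_KO, against 6.78 and 6.03 FPKM in Runx2_cHom_KO. The groups did not overlap, and the log2(FPKM + 1) change was 1.88 with a standard error of 0.19 (limma adjusted p = 0.0138). Ccl5 was at 3.81 and 1.81 FPKM in Runx2_cHet_KO and at 0.183 and 0.172 FPKM in Runx2_cHom_KO. Again the groups did not overlap, with a change of -1.64 and a standard error of 0.30 (limma adjusted p = 0.0381). Each passed the level filter only through the genotype in which it is high, since Ccl11 had 1 Runx2_cHet_KO library and Ccl5 had 0 Runx2_cHom_KO libraries at 1 FPKM. The fall of Ccl5 did not pass without the level filter (limma adjusted p = 0.0709) or with the replicate number as a block (limma adjusted p = 0.0558).

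Cxcl12 and Cxcl1 were higher in both Runx2_cHom_KO libraries without passing the test. Cxcl12 was at 24.3 and 10.7 FPKM in Runx2_cHet_KO and at 42.8 and 43.8 FPKM in Runx2_cHom_KO. The SD was 9.59 FPKM in the first pair and 0.709 FPKM in the second (n = 2 each), and the log2 change of 1.36 with a standard error of 0.38 had a limma adjusted p of 0.110. The spread lay in the Runx2_cHet_KO pair, 2.27-fold apart, while the other pair was nearly equal. Cxcl1 was at 32.4 and 18.9 FPKM in Runx2_cHet_KO and at 69.5 and 55.0 FPKM in Runx2_cHom_KO, with a log2 change of 1.28 and a standard error of 0.27 (limma adjusted p = 0.0564). With the replicate number as a block, Cxcl1 passed (limma adjusted p = 0.0376). Of the 16 members tested, 3 had both Runx2_cHom_KO values above both Runx2_cHet_KO values and 1 had both below, as did 26.7% and 31.3% of all genes tested.

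The Runx2_cHet_KO libraries differed from each other in most chemokine genes. Of the 16 members, 11 were at least 2-fold higher in library 1 than in library 2, against 4.51% of all genes tested. None of the 16 (0) differed 2-fold between the Runx2_cHom_KO libraries, as 3.55% of all genes did. These counts were made after the values were seen. In 7 members both Runx2_cHom_KO values lay between the Runx2_cHet_KO values, and these were Ccl2, Ccl3, Ccl4, Ccl9, Ccl12, Cxcl2 and Cxcl16.

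Ccl3, a ligand for macrophages and osteoclast precursors, was at 53.3 and 6.68 FPKM in Runx2_cHet_KO and at 10.5 and 13.4 FPKM in Runx2_cHom_KO. Ccl4 was at 24.0 and 3.75 FPKM and at 6.23 and 4.31 FPKM, and Cxcl2 at 26.3 and 5.21 FPKM and at 5.61 and 7.26 FPKM, in the same order. In each of these the first Runx2_cHet_KO library was the highest of the 4 and the second was the lowest. Ccl12, a monocyte ligand of the mouse, was at 18.8 and 4.83 FPKM and at 7.60 and 5.42 FPKM. Cxcl16 was at 8.99 and 2.13 FPKM and at 3.46 and 3.15 FPKM, and Ccl9 at 3.36 and 0.292 FPKM and at 0.798 and 1.04 FPKM. Their limma adjusted p lay between 0.605 and 0.778.

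The monocyte ligands Ccl2 and Ccl7 were the most abundant CC ligands in 3 of the 4 libraries, and in Runx2_cHet_KO library 1 Ccl3 lay just above Ccl7. Ccl2 was at 72.1 and 21.6 FPKM in Runx2_cHet_KO and at 41.0 and 42.4 FPKM in Runx2_cHom_KO (limma adjusted p = 0.958). Ccl7 was at 52.1 and 15.6 FPKM and at 49.6 and 57.0 FPKM (limma adjusted p = 0.484). Cxcl10, an interferon-induced ligand of Cxcr3, was at 8.26 and 3.39 FPKM and at 9.19 and 7.66 FPKM (limma adjusted p = 0.393). In all 3 the groups overlapped, with library 2 of Runx2_cHet_KO the lowest.

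The most abundant chemokine gene was even across libraries. Cxcl14 was at 116 and 154 FPKM in Runx2_cHet_KO and at 137 and 142 FPKM in Runx2_cHom_KO, with a log2 change of 0.064 and a standard error of 0.16 (limma adjusted p = 0.830). Cxcr7 was the one receptor that passed the level filter, at 33.9 and 26.7 FPKM in Runx2_cHet_KO and at 29.1 and 21.4 FPKM in Runx2_cHom_KO (limma adjusted p = 0.436). Ccl25, known as a ligand of thymus and gut, was at 3.12 and 5.11 FPKM and at 5.74 and 3.94 FPKM (limma adjusted p = 0.673). The groups overlapped for all of these. Cxcr4 was at 1.13 and 0.272 FPKM and at 0.324 and 0.725 FPKM and was not tested. Ccr1 was at 2.43 and 0.0719 FPKM in Runx2_cHet_KO and at 0.601 and 0.708 FPKM in Runx2_cHom_KO, and it was not tested either. Of the other genes that were high in Col10+ cells, Ccl6 was at most 0.842 FPKM, Ccr2 at most 0.292 FPKM, Cxcl3 at most 0.148 FPKM and Cxcr2 at most 0.155 FPKM in any osteoblast library. Calvarial cells thus had Cxcl12 and Cxcl14 with the atypical receptor Cxcr7 and little Cxcr4.

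The calls depended on which Runx2_cHet_KO library was kept. Without library 1 the test called 5 rises, of Ccl7, Ccl11, Cxcl1, Cxcl10 and Cxcl12, and 1 fall, of Ccl5, where 3.17% of all genes rose and 1.52% fell. Without library 2 it called 1 rise, of Ccl11, and 7 falls, of Ccl3, Ccl4, Ccl5, Ccl9, Ccl12, Cxcl2 and Cxcl16, where 2.76% rose and 2.35% fell. Ccl11 and Ccl5 were the genes called either way. For Cxcl12 the log2 change was 1.92 without library 1 (limma adjusted p = 0.0055) and 0.81 without library 2 (limma adjusted p = 0.0195), the latter under the limit of 1. For Ccl3 it was 0.74 without library 1 and -2.08 without library 2. With a single Runx2_cHet_KO library the spread comes from the Runx2_cHom_KO pair alone, and the lone library is assumed to vary like that pair. Without either Runx2_cHom_KO library no member was called, as the test then called no rise and at most 1 fall (0.0084%) among all genes, and Ccl11 had a limma adjusted p of 0.198 and 0.194.

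**Figure D2:**
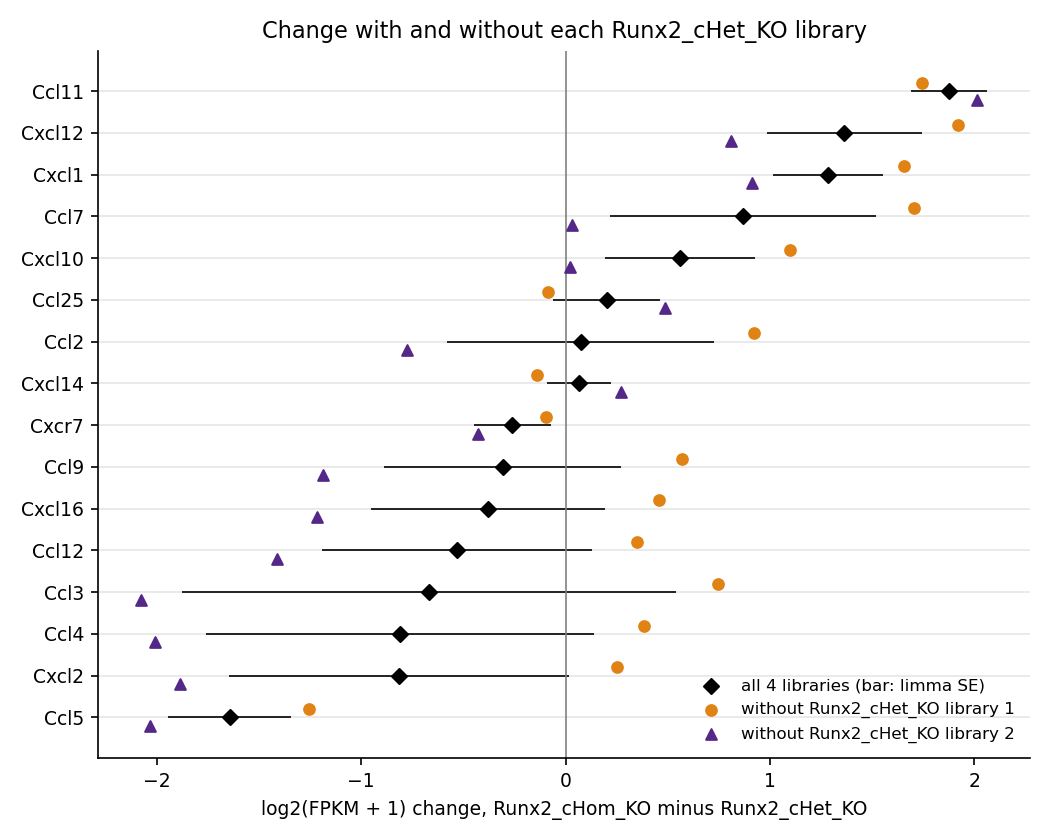
Change of the 16 tested chemokine genes in log2(FPKM + 1), Runx2_cHom_KO minus Runx2_cHet_KO, with diamonds and limma standard errors for all 4 libraries, circles without Runx2_cHet_KO library 1 and triangles without library 2. Ccl11 is at 1.74 or more and Ccl5 at -1.26 or less in all 3 fits, whereas Ccl3 moves from 0.74 to -2.08.

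Marker genes of other cells differed between the same libraries. In the macrophage and monocyte list 9 of 10 markers could be tested and 0 passed with all 4 libraries, while all 9 fell without Runx2_cHet_KO library 2. Each of these 9 was highest in Runx2_cHet_KO library 1. The lowest value lay in Runx2_cHet_KO library 2 for 6 of them, as it did for Ccl3, Ccl4 and Cxcl2, and in a Runx2_cHom_KO library for C1qc, Tyrobp and Fcgr1. The 5 mast cell markers summed to 44.5 and 8.50 FPKM and to 34.6 and 15.3 FPKM. The 6 endothelial markers summed to 22.4 and 6.38 FPKM in Runx2_cHet_KO and to 51.1 and 44.3 FPKM in Runx2_cHom_KO, and 1 of them, Tek, rose. Without Runx2_cHet_KO library 1 all 6 rose, and without library 2 Tek and Pecam1 (2) did. Cxcl12 and Cxcl1 were also lowest in Runx2_cHet_KO library 2 and higher in both Runx2_cHom_KO libraries than in either Runx2_cHet_KO library. Both Runx2_cHom_KO values lay above both Runx2_cHet_KO values in 26.7% of all genes tested. Of the 7 fibroblast and perichondrium markers, Pi16 and Clec3b rose and 0 fell. Dpt and Postn were also higher in both Runx2_cHom_KO libraries without passing. Thy1 and Lum were lower in both, with Lum at 263 and 311 FPKM against 179 and 173 FPKM. The log2 change of Lum was -0.70, under the limit of 1 in size, and Tnmd overlapped. All 4 skeletal muscle markers tested rose. With Myh3, which was not tested, the 5 markers summed to 0.535 and 2.47 FPKM against 34.0 and 41.7 FPKM. Ccl11 was higher in both Runx2_cHom_KO libraries too. The 8 neutrophil markers summed to at most 3.01 FPKM in any osteoblast library and were all listed at 0 in Runx2_cHet_KO library 2. The part of other cell types in the chemokine values was not tested.

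**Figure D3:**
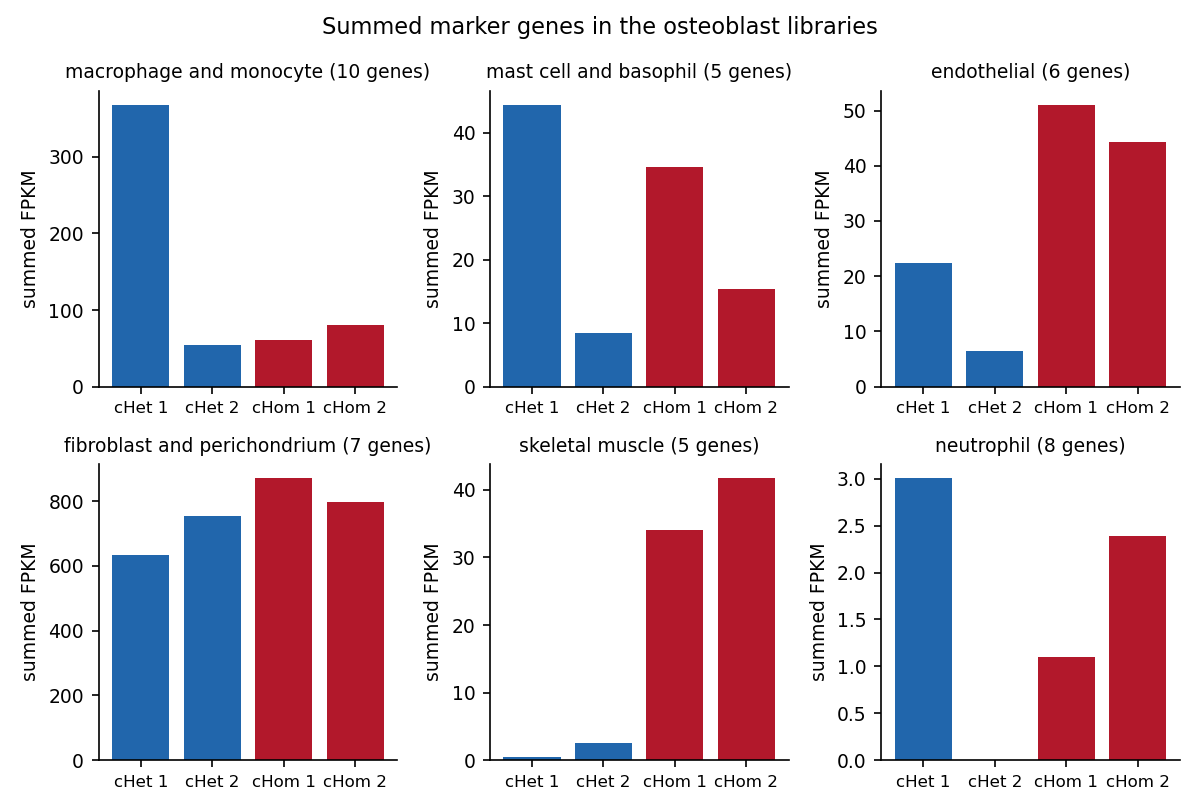
Summed FPKM of marker genes in each osteoblast library for 6 cell types, with blue bars for Runx2_cHet_KO and red bars for Runx2_cHom_KO, each panel on its own scale from 0. Macrophage markers stand at 368 FPKM in the first Runx2_cHet_KO library and at 54.0 to 81.2 FPKM in the others, while endothelial and muscle markers are higher in both Runx2_cHom_KO libraries.

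Chemokine genes lie in runs, and the runs were set beside the values. In the order of protein-coding genes on GRCm38, 47 members could be placed, and 29 of them lay in 8 runs with at most 3 other genes between neighbours. The run Ccl5, Ccl9, Ccl6, Ccl3 and Ccl4 had 5 of 5 members higher in Col10+ cells, and the run Cxcl5, Cxcl3, Cxcl1 and Cxcl2 had 3 of 4. The run Ccl2, Ccl7, Ccl11, Ccl12, Ccl8 and Ccl1 had 2 of 6, the pair Cxcr2 and Cxcr1 had 1 of 2, and the pairs Cxcl9 and Cxcl10, Ccl26 and Ccl24, and Ccl22 and Ccl17 had 0. Over all 8 runs 14 of 29 members were higher, where 18 of all 48 members were. These counts include members under 5 FPKM in both sorts. Of all genes at 5 FPKM or more in a sort, 13.8% were higher. The members counted as higher reached that level in Col10+ cells only. Whether neighbours share regulation was not tested. In the osteoblasts neighbours did not share a call in the test of all 4 libraries. Ccl11 rose between Ccl7 and Ccl12, neither of which passed, and Ccl5 fell at the end of a run in which Ccl3, Ccl4 and Ccl9 did not pass. Without Runx2_cHet_KO library 2 these 4 neighbours all fell.

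Other genes of the chemokine system were read from 6 lists, with the calls defined as above. The counts of each list stand beside the shares over all genes tested. In the rib sorts 13.8% of all genes were higher and 14.2% lower in Col10+ cells. In the osteoblasts 2.3% rose and 1.39% fell. In the list of other family ligands, 1 of 2 tested in the rib sorts was higher and 0 lower, and 0 of 3 passed in the osteoblasts. Pf4, a CXC ligand of platelets and macrophages whose symbol lies outside the naming rule, was listed at 0 in Col2+ and was at 52.4 FPKM in Col10+ cells. In the osteoblasts Pf4 was at 99.4 and 14.8 FPKM in Runx2_cHet_KO and at 28.2 and 29.9 FPKM in Runx2_cHom_KO, and it fell when Runx2_cHet_KO library 2 was left out. Ccl27a, a skin ligand, was at 4.51 and 11.4 FPKM and at 5.24 and 4.47 FPKM, and it fell without Runx2_cHet_KO library 1. In the list of other and atypical receptors, which includes Cxcr7, 3 of 4 were higher in Col10+ cells and 1 lower, and 0 of 5 passed in the osteoblasts. Ccrl2 was at 0.0683 and 16.1 FPKM in the sorts and Cx3cr1, the fractalkine receptor of monocytes and macrophages, at 0.00335 and 9.70 FPKM. Cmklr1, the receptor of chemerin, was lower, at 67.8 and 7.78 FPKM, and in the osteoblasts it was at 5.45 and 2.86 FPKM and at 2.27 and 2.58 FPKM. Without Runx2_cHet_KO library 2, Ccrl2 and Cx3cr1 fell.

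Among genes that pass on receptor signals, 12 of 27 were higher and 3 lower in Col10+ cells, with a median log2 difference of 0.77 beside -0.31 for all genes. The largest were genes known from blood cells. Rac2, a GTPase of leukocytes, was at 0.0296 and 61.9 FPKM, Rgs1, which ends G protein signals, at 0.115 and 26.3 FPKM, and Was, an actin regulator, was listed at 0 and was at 14.6 FPKM. Arrb2, an arrestin that takes receptors off the surface, was at 1.10 and 28.6 FPKM. In the osteoblasts 1 of 23 rose and 1 fell. Rgs16, a regulator of G protein signals, rose from 4.14 ± 0.801 to 11.4 ± 1.89 FPKM (limma adjusted p = 0.0234), and Elmo1, which links receptors to Rac, fell from 10.9 ± 1.99 to 4.69 ± 0.197 FPKM (limma adjusted p = 0.0268), with SD over n = 2 here and below. Without Runx2_cHet_KO library 1 the log2 change of Elmo1 was -0.89 and the list had 0 falls, while without library 2 Elmo1, Prex1 and Ptk2b (3) fell. Rgs16 rose without either of these libraries.

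Of the genes that induce chemokines in inflammation, 7 of 18 were higher and 2 lower in Col10+ cells. Il1b was listed at 0 and was at 25.9 FPKM, Nfkbia, the NF-kappaB inhibitor that NF-kappaB itself induces, was at 4.36 and 49.0 FPKM, Il6 at 0.264 and 8.53 FPKM and Irf1 at 1.29 and 13.8 FPKM. In the osteoblasts 1 of 21 rose and 1 fell. Irf1, an interferon-responsive factor, rose from 39.8 ± 7.79 to 85.3 ± 13.0 FPKM (limma adjusted p = 0.0300), and Ifngr1, a chain of the interferon gamma receptor, fell from 39.4 ± 0.783 to 17.7 ± 0.222 FPKM (limma adjusted p = 0.0122). Without Runx2_cHet_KO library 1 the list had 4 rises (Irf1, Il6, Nfkbiz and Zfp36) and 1 fall. Without library 2 it had 0 rises, with a log2 change of 0.89 for Irf1, and 4 falls (Ifngr1, Il1b, Tlr2 and Tnf). Ifng itself was listed at 0 in all columns.

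Of the marrow niche factors, 3 of 8 were higher and 2 lower in Col10+ cells. The adhesion molecule Vcam1 was at 0.464 and 35.5 FPKM, Igf1 at 0.0945 and 6.50 FPKM and the macrophage growth factor Csf1 at 1.82 and 11.8 FPKM, while Foxc1, a transcription factor of Cxcl12-rich marrow stromal cells, was lower at 30.4 and 11.5 FPKM. In the osteoblasts 2 of 13 rose and 1 fell, with a median log2 change of 0.49 beside -0.026 for all genes. Foxc1 rose from 15.4 ± 2.55 to 41.7 ± 2.58 FPKM (limma adjusted p = 0.0138) and Ebf3, another factor of those cells, from 7.03 ± 0.494 to 19.2 ± 2.75 FPKM (limma adjusted p = 0.0158), while Spp1 fell from 413 ± 68.3 to 81.2 ± 13.6 FPKM (limma adjusted p = 0.00961). These 3 calls were also made without either Runx2_cHet_KO library. Which other genes of the list were called, rises and falls alike, depended on the library left out. Cxcl12, the chemokine of this niche, did not pass, as given above.

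Of the peptidases that trim chemokines and the proteoglycans that hold them, 5 of 13 were higher and 5 lower in Col10+ cells. Mmp9 was at 0.359 and 87.0 FPKM, Mmp13 at 0.424 and 78.4 FPKM, and Mmp8, a neutrophil collagenase, was listed at 0 and was at 12.8 FPKM. The heparan sulfate carrier Sdc4 was lower, at 523 and 145 FPKM. In the osteoblasts 2 of 13 rose and 0 fell. Dpp4, a surface peptidase that removes the first residues of Cxcl12 and so inactivates it, was at 0.473 and 1.99 FPKM in Runx2_cHet_KO and at 8.95 and 8.67 FPKM in Runx2_cHom_KO, a log2(FPKM + 1) rise of 2.23 and a standard error of 0.34 (limma adjusted p = 0.0268). Mmp9 rose from 2.83 ± 0.524 to 23.8 ± 1.04 FPKM (limma adjusted p = 0.00523). As for the chemokines, no call in these lists was made without either Runx2_cHom_KO library.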

How the data were processed

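Expression of 10 libraries was deposited as 2 tables of FPKM, computed by the authors, per the file headers: 1 value per rib sort, with how its 3 libraries were combined not given in the labels or headers, and 1 per osteoblast library. TopHat2 2.1.0, Cufflinks and Cuffdiff 2.2.1 and build mm9 are named, without order, in the submitters' processing notes. Per the labels' protocols, rib libraries used 100 ng of RNA and a Tru-Seq kit, and osteoblast libraries 1.7 ng and a SMARTer Pico kit. A rib column that matched no sample (1) was not used. Rows without a gene name (3444 and 0, ribs first) or with a date as a name (25 and 26) were left out. Of several rows of a symbol the one with the highest mean was used, which touched Ccl3 in the rib table and Ccl19, a gene with near-identical copies, in both.

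Counts were not at hand and depth is unknown. The lowest osteoblast values, below 0.06 FPKM in both libraries compared, showed a preferred ratio, by which 1 read in Runx2_cHet_KO library 1 was worth 0.797 to 0.843 times a read in the others, so that library was the deepest. No counting interval was computed. Values were analysed as log2(FPKM + 1), a scale on which changes of low genes look smaller than they are, with limma 3.58.1 in R 4.3.3 with trended and robust variances and Benjamini-Hochberg adjustment over all genes tested. The procedure was tested on simulated data in which all genes had the same spread and only well-expressed genes were changed. That test therefore does not cover genes of unequal spread or genes near the level filter. Standard errors are limma's and SDs are over libraries. Symbols matched RefSeq directly in 47 cases and Cxcr7 as a synonym of Ackr3. Values are given for members at 5 FPKM or more in any column or called, and for up to 4 called genes of each list, or the 2 most abundant where fewer than 2 were called. The members and lists were chosen with earlier results of these data known. The alternatives tried were another pseudocount, other level filters, median-centred columns, limma without trend or robust variance, summed rows, a replicate block and leaving out each library. Values of 1 member are not reported here.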

Additional observations from a re-analysis of the deposited data

How the results depend on the processing

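In the rib sorts the same 18 members were higher and Cxcl14 lower with a pseudocount of 0.1, with centred columns and with summed rows, and 26 were higher with a limit of 1 FPKM or none. Among all rib genes 1940 in place of 1150 were higher with a limit of 1 FPKM or none, and 654 in place of 1188 were lower with centred columns. In the osteoblasts the rise of Ccl11 passed under the 7 alternatives that kept all libraries. The fall of Ccl5 (1 member) became 0 without a level filter, with 5 FPKM in 2 libraries (where it was not tested), with a replicate block and without trend and robust variances. Among all genes, no filter gave 153 rises and 95 falls in place of 274 and 165. Leaving out 1 library moved member rises between 0 and 5 and member falls between 0 and 7, and all rises between 0 and 378 and all falls between 0 and 280. The log2 change of 9 members changed sign in these runs, with ranges of Ccl2 -0.77 to 0.92, Ccl3 -2.08 to 0.74, Ccl4 -2.01 to 0.38, Ccl9 -1.19 to 0.57, Ccl12 -1.41 to 0.35, Ccl25 -0.084 to 0.48, Cxcl2 -1.88 to 0.25, Cxcl14 -0.14 to 0.27 and Cxcl16 -1.22 to 0.46. The cause was not tested. Same-numbered libraries of the genotypes did not deviate together (r = -0.050 over 11909 genes), and the replicate block gave 2 member rises (Ccl11 and Cxcl1), 0 falls and 174 rises of all genes. Unknown depth and 2 libraries a group limit what can be called for members near 1 FPKM.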
